A study of Mus musculus with 15 samples.

Results

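The citric acid cycle and the oxidation of pyruvate that feeds it were followed in brown adipose tissue, the heat-producing fat of mice, through 29 genes chosen by name. All 29 were found by symbol among the 16774 genes of the deposited table, 1 row each. Bulk RNA sequencing had been done on 7 mice given bisphenol S (BPS), an industrial substitute for bisphenol A, and on 8 mice given vehicle. The series title speaks of an environmental dose and of aging. Strain, sex, age, dose, route and duration are not given in the sources used here, and no allele or transgene is named for either group. Samples are named by group and by the number in their titles, and BPS has no replicate 7.

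Pyruvate made in the cytosol enters mitochondria through a carrier built from Mpc1 and Mpc2. The pyruvate dehydrogenase complex turns it into acetyl-CoA, under the control of kinases that switch the complex off by phosphorylation and phosphatases that switch it on. Citrate synthase joins acetyl-CoA to oxaloacetate, and the cycle then yields NADH, FADH2 and GTP or ATP while oxaloacetate is made again. In brown adipocytes, which are packed with mitochondria, the cycle supplies the respiratory chain whose proton gradient Ucp1 dissipates as heat.

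Promoters are shown because most of these genes were low or high in the same libraries, as described further on. RefSeq windows of GRCm38.p6, from 250 bases before to 50 bases after an annotated start, were held for 26 of the 29 genes, and for all but Idh3a, Pdp1 and Me2. Motifs were searched on both strands. The ERR motif TNAAGGTCA, bound by estrogen-related receptors, lay in the windows of 0 of 26 members, against 1.01% of the 13265 genes of the table with a window. The NRF1 motif GCATGCGC lay in 1 of 26, that of Ogdh, against 4.92% of genes, and the GABPA motif CCGGAAGT in 1 of 26, that of Dlst, against 7.30%. Both genes encode parts of the 2-oxoglutarate dehydrogenase complex. Shorter forms were searched after these results were seen. The core AAGGTCA, which lies inside TNAAGGTCA, was in 1 of 26, again Ogdh, against 4.33% of genes. The half-site AGGTCA, which lies inside both, was in 6 of 26 (Fh1, Idh3g, Mpc1, Ogdh, Pcx and Sucla2), which is 23.1% against 16.1% of genes. The 3 windows below, which the motif hits picked after they were seen, hold AAGGTCA, the NRF1 motif and the GABPA motif in capitals, each as its reverse complement. They lie on the plus strand at chr11:6291920-6292219, chr11:6292308-6292607 and chr12:85110583-85110882. RefSeq gives several starts and so 6 windows for Ogdh, and another of them, chr11:6292329-6292628, holds the same NRF1 match and is not printed. The capitals begin 5 bases before the start in the first window, 15 bases before it in the second and at the start in the last.
Ogdh, window with AAGGTCA: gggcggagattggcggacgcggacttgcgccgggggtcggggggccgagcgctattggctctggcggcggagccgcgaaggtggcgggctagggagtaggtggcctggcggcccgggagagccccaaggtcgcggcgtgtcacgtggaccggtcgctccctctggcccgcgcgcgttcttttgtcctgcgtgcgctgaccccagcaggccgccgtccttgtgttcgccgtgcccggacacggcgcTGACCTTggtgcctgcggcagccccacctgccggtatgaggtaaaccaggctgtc
Ogdh, window with the NRF1 motif: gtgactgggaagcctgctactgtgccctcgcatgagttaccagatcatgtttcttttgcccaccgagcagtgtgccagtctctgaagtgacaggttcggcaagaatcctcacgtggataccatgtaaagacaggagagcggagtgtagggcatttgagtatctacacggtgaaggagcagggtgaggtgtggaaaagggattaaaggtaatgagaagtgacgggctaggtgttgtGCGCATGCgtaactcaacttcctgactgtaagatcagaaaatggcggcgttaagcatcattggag
Dlst: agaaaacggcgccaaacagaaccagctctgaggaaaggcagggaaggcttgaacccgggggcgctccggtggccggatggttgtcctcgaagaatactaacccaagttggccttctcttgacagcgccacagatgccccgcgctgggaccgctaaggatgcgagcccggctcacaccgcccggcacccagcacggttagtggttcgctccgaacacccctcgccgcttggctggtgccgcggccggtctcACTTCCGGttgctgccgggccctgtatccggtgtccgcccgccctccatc

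Values are FPKM, fragments scaled by transcript length and by library total, as the authors deposited them. They summed to 756556 to 905021 in BPS libraries and to 833776 to 920855 in vehicle libraries. Some libraries stood apart. Levels of 4 genes of the Y chromosome (Kdm5d, Uty, Ddx3y, Eif2s3y), averaged as shares of their vehicle means, were at 0.437%, 53.5%, 74.5% and 26.4% in BPS replicates 4, 5, 6 and 8, at 92.0% to 102.2% in BPS replicates 1 to 3 and at 82.9% to 114.7% in vehicle. The 15 skeletal muscle markers summed to 105 to 14394 FPKM in BPS and to 300 to 79460 FPKM in vehicle, with vehicle replicates 2, 6 and 8 highest at 79460, 76901 and 26367. Results are therefore given with and without BPS replicates 4, 5, 6 and 8, and without those 3 vehicle libraries where the value turns on it. Each library carries its own mouse label, and n, SDs and p-values take each as 1 mouse. BPS replicate 4, at 0.437%, lacked the Y-linked signal of male tissue that every vehicle library held. Its differences from vehicle therefore cannot be told apart from differences of sex. Whether BPS replicates 5, 6 and 8, with their graded Y-linked levels, each hold tissue of a single male mouse was not tested. The p-values measure only the spread between these libraries.

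The tissue label was checked on 14 brown adipocyte markers, all of which were above 0 in every library. Their sum was 1597 FPKM in BPS replicate 4, 8079 to 21092 in the other BPS libraries and 10540 to 23215 in vehicle. Cox8b, a cytochrome oxidase subunit gene, was the largest part of that sum in every library. BPS replicate 4 held Ucp1 at 82.3 FPKM and Cox8b at 699 FPKM, against at least 358 and 5518 FPKM in vehicle. Cidea, Dio2, Cox7a1, Kcnk3 and Otop1 also lay under every vehicle library there. The rest of the list was not low in that library. Ebf2 and Lhx8, at 23.0 and 6.32 FPKM, lay above every vehicle library (at most 12.4 and 5.34 FPKM). Ppargc1a, Prdm16, Adrb3, Elovl3 and Zic1 lay within the vehicle range.

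Most of the pathway was abundant. The median member stood at the 97.0th percentile of mean FPKM among 12156 tested genes, and 21 of 29 averaged over 100 FPKM. Mpc1 led at 1305 FPKM over all libraries, followed by the mitochondrial malate dehydrogenase Mdh2 at 900.5, the ATP-forming succinyl-CoA ligase subunit Sucla2 at 882 and the citrate synthase Cs at 780.0 FPKM. Mdh2 was above Cs in every library. The place of Sucla2 changed from library to library. It was above Mdh2 in BPS replicate 3 (1144.7 against 1050.4 FPKM) and under Cs in BPS replicate 4 (214.3 against 439.9 FPKM). Of the 5 regulator genes among the 29, most were scarce beside the complex they act on. The kinase Pdk2 averaged 154.8 FPKM, its relative Pdk1 19.5, and the phosphatase genes Pdp2 and Pdp1 11.9 and 7.55 FPKM. Pdk2 itself stood above Dlat and Pdhx of the complex, at 141.9 and 50.6 FPKM. A further kinase gene, Pdk4, is not among the 29. It averaged 406.8 ± 133 FPKM in BPS (SD, n = 7) and 499.3 ± 65.8 FPKM in vehicle (SD, n = 8). The malic enzyme Me2 was the lowest member at 2.16 FPKM.

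The members moved by library more than by group. Of 29, 20 had their lowest value of all 15 libraries in BPS replicate 4 (69.0%, against 19.2% of all tested genes), and 17 had their highest in vehicle replicate 7 (58.6%, against 7.58%). These are descriptions of single libraries, in which all genes share the RNA and the scaling. Summed over the 29 genes, BPS libraries held 5842, 11011 and 12383 FPKM (lowest, median and highest), against 8885, 10554 and 16661 FPKM in vehicle libraries. The lowest was BPS replicate 4, then BPS replicate 8 at 8100.0, while vehicle replicates 7 and 5 stood highest at 16661 and 15454, and the groups overlapped. In a bulk sample, fewer brown adipocytes and less of these transcripts per cell cannot be told apart.

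**Figure D1:**
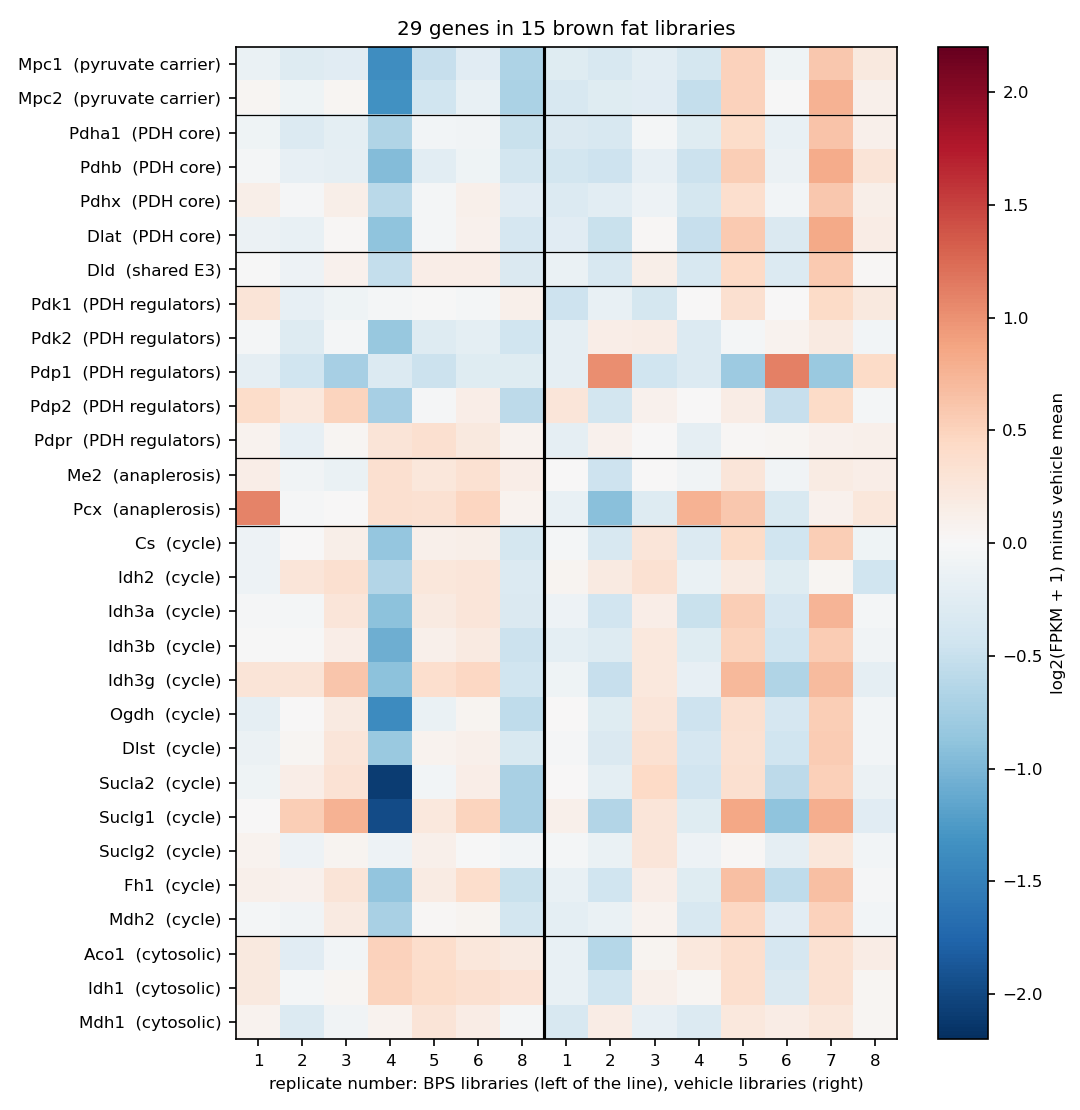
Colour gives log2(FPKM + 1) minus the vehicle mean for each of the 29 genes (rows, grouped by role) in the 7 BPS libraries (left of the line) and the 8 vehicle libraries (right), by replicate number. The blue column is BPS replicate 4, where 20 genes had their lowest value, and the red columns are vehicle replicates 5 and 7.

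No member passed the threshold between BPS and vehicle. With limma on log2(FPKM + 1), 0 of 29 were higher and 0 lower at an adjusted p under 0.05 (Benjamini-Hochberg over 12156 genes), where 0.411% of all tested genes were called, 0.346% higher and 0.0658% lower. At an unadjusted p under 0.05 there were 2 members, Pdk2 and Mpc1 (6.90%, against 23.1% of all tested genes). BPS and vehicle values did not overlap in 0 members and in 0.576% of tested genes. In the authors' deposited table, 0 of 29 had a q under 0.05, where 5.74% of its genes did, and 4 (Mpc1, Pdk2, Pdp1 and Pdha1) had a p under 0.05, where 23.6% did. Estimates were negative for 20 members, 69.0% against 41.5% of all tested genes, with a median log2 change of -0.09 against 0.05 for all tested genes. Without BPS replicate 4 there were 13 negative members and a median of 0.01. Without BPS replicates 4, 5, 6 and 8 there were 11, with a median of 0.00 and 0 members past the threshold or at an unadjusted p under 0.05, against a median of 0.01 for all genes. Without vehicle replicates 2, 6 and 8 the median moved the other way, to -0.22, with 21 negative members and 0 past the threshold, against a median of 0.03 for all genes. A missed threshold does not show that the groups are alike. Standard errors ran from 0.0799 to 0.381 on the log2 scale. The 95% intervals below say what size of change is possible for a single gene with all 15 libraries taken as they are. They are not adjusted over the genes tested, and estimates also moved when libraries were left out.

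**Figure D2:**
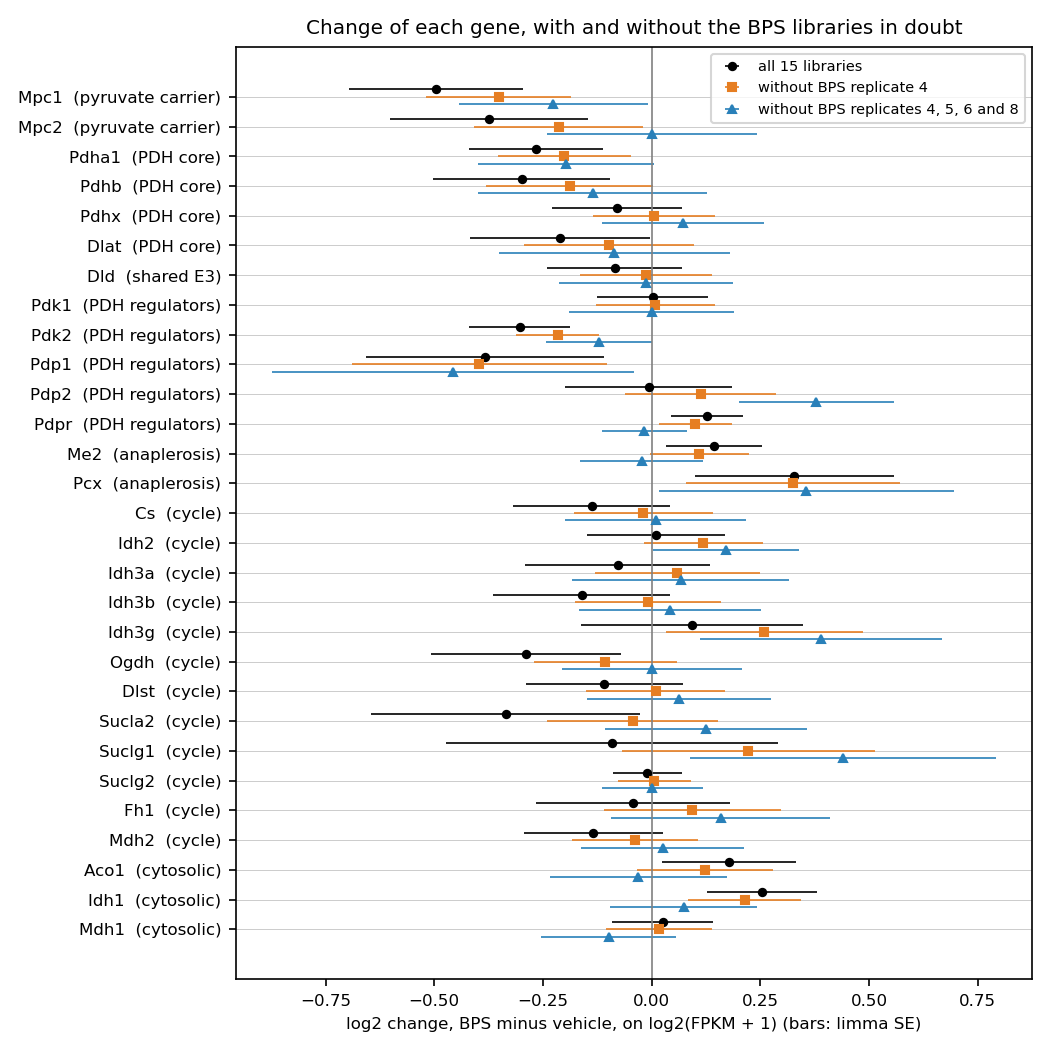
Points are log2 changes (BPS minus vehicle, on log2(FPKM + 1)) of the 29 genes and bars are limma standard errors, with all 15 libraries (black circles), without BPS replicate 4 (orange squares) and without BPS replicates 4, 5, 6 and 8 (blue triangles). The points of most cycle genes lie further right without these libraries, and none of the 29 passed the threshold in any of the 3 fits.

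The mitochondrial pyruvate carrier genes had the lowest median estimate of the role groups, -0.43. Mpc1 (Entrez 55951, chromosome 17, 8283787 to 8297667, GRCm38.p6), which needs Mpc2 to form the working carrier, had 567.7, 1199 and 1327 FPKM in BPS libraries (lowest, median and highest) and 1122, 1305 and 2201 FPKM in vehicle libraries. The BPS libraries all lay under the vehicle mean, 3 of 7 lay under every vehicle library, and vehicle replicates 5, 6, 7 and 8 stood above every BPS library. Means were 1069.7 ± 261 FPKM in BPS (SD, n = 7) and 1510 ± 432 FPKM in vehicle (SD, n = 8), a log2 change of -0.50 ± 0.199 (SE; 95% interval -0.92 to -0.07, adjusted p 0.165, limma). Without the 4 BPS libraries the change was -0.23 ± 0.217 (adjusted p 0.783). It was -0.54 ± 0.240 without vehicle replicates 2, 6 and 8 (adjusted p 0.420, limma). With the mean level of the muscle markers as a covariate it was -0.58 ± 0.213 (adjusted p 0.267, limma).

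Mpc2 (Entrez 70456, chromosome 1, 165461260 to 165481218) had 285, 643 and 742 FPKM in BPS libraries and 499.5, 661 and 1224 FPKM in vehicle libraries. Its groups overlapped except at both ends, where BPS replicates 4 and 8 lay under every vehicle library and vehicle replicates 5, 7 and 8 above every BPS library. The log2 change was -0.37 ± 0.228 (95% interval -0.86 to 0.11, adjusted p 0.323, limma), -0.21 without BPS replicate 4 and 0.00 ± 0.242 without the 4 BPS libraries. It was -0.40 ± 0.282 without vehicle replicates 2, 6 and 8.

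The 4 genes of the pyruvate dehydrogenase core all had negative estimates, with a median of -0.24. Pdha1 (Entrez 18597, chromosome X, 160122219 to 160138430) encodes the E1 alpha subunit, the one the kinases phosphorylate. It had 341, 465 and 515 FPKM in BPS libraries and 418, 499.6 and 834 FPKM in vehicle libraries, with every BPS library under the vehicle mean and 2 under every vehicle library. Its log2 change was -0.27 ± 0.154 (95% interval -0.59 to 0.06, adjusted p 0.305, limma), -0.20 ± 0.203 without the 4 BPS libraries and -0.17 without vehicle replicate 7 alone. Pdhb (Entrez 68263, chromosome 14, 8165991 to 8173303), the E1 beta subunit, had 304, 520.2 and 579 FPKM in BPS libraries and 428, 534 and 1043 FPKM in vehicle libraries, where replicates 5 and 7 made up the upper end. Its log2 change was -0.30 ± 0.203 (adjusted p 0.373), -0.14 ± 0.263 without the 4 BPS libraries and -0.18 without vehicle replicate 7 alone. Without vehicle replicates 2, 6 and 8 the changes of Pdha1 and Pdhb were -0.35 ± 0.178 and -0.36 ± 0.238. Dlat, the E2 acetyltransferase (Entrez 235339, chromosome 9, 50634633 to 50659780), had 78.4, 133.6 and 155 FPKM in BPS libraries and 101.8, 135.0 and 260.6 FPKM in vehicle libraries, with a log2 change of -0.21 ± 0.207 (adjusted p 0.541). That of Dlat was -0.09 ± 0.266 without the 4 BPS libraries, -0.09 without vehicle replicate 7 alone and -0.34 ± 0.234 without vehicle replicates 2, 6 and 8. The medians of Dlat and Pdhb differed little between groups while the highest vehicle libraries stood apart from the rest. Pdhx, which ties E3 to the E2 core, averaged 48.8 ± 8.25 FPKM in BPS and 52.2 ± 13.2 FPKM in vehicle (log2 change -0.08 ± 0.15). Dld, the E3 dehydrogenase that this complex shares with the 2-oxoglutarate complex, had 263, 375 and 415 FPKM in BPS libraries and 294, 362 and 561 FPKM in vehicle libraries (log2 change -0.09 ± 0.156).

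Among the regulators, Pdk2 had the smallest p of all 29 members. This kinase (Entrez 18604, chromosome 11, 95026258 to 95041371) switches pyruvate dehydrogenase off. Its level was 94.2, 138.7 and 164.0 FPKM in BPS libraries and 137.1, 170.3 and 193.7 FPKM in vehicle libraries. All 7 BPS libraries lay under the vehicle mean, BPS replicates 4 and 8 lay under every vehicle library, and the remaining 5 lay within the vehicle range. Means were 138 ± 24.0 FPKM in BPS (SD, n = 7) and 169 ± 20.4 FPKM in vehicle (SD, n = 8), a log2 change of -0.30 ± 0.116 (95% interval -0.55 to -0.06, adjusted p 0.151, limma). Without the 4 BPS libraries it was -0.12 ± 0.122 (adjusted p 0.785), and over 27 alternatives its adjusted p ran from 0.1004 to 1.00. Pdk1, a kinase known to be induced in low oxygen, averaged 19.4 ± 2.23 FPKM in BPS and 19.7 ± 4.55 FPKM in vehicle, a log2 change of 0.00 ± 0.128 with a 95% interval of -0.27 to 0.27.

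The phosphatase Pdp1 (Entrez 381511, chromosome 4, 11958183 to 11966450) was highest in the 3 vehicle libraries with the highest muscle marker sums. It had 4.33, 6.16 and 6.71 FPKM in BPS libraries and 4.04, 6.465 and 18.1 FPKM in vehicle libraries. The high vehicle values were 16.9, 18.1 and 10.9 FPKM in replicates 2, 6 and 8, while the other 5 vehicle libraries averaged 5.32 ± 1.22 FPKM (SD, n = 5). Its log2 change was -0.38 ± 0.273 (95% interval -0.96 to 0.20, adjusted p 0.393, limma), 0.13 ± 0.130 without those 3 vehicle libraries and -0.05 ± 0.196 with the muscle score as a covariate. Pdp2, the second phosphatase (Entrez 382051, chromosome 8, 104591472 to 104599026), had 6.60, 12.8 and 16.7 FPKM in BPS libraries and 7.85, 12.0 and 15.9 FPKM in vehicle libraries, with BPS replicates 4 and 8 lowest of all. The log2 change was -0.01 ± 0.191 with all libraries and 0.38 ± 0.178 without BPS replicates 4, 5, 6 and 8 (adjusted p 0.634, limma), but -0.20 ± 0.204 without vehicle replicates 2, 6 and 8. Pdpr, the regulatory subunit of the phosphatase (Entrez 319518, chromosome 8, 111094609 to 111139781), had 11.6, 14.1 and 17.1 FPKM in BPS libraries and 11.4, 13.6 and 14.3 FPKM in vehicle libraries. Its 3 highest libraries were BPS replicates 5, 4 and 6, all among those in doubt, and its log2 change was 0.13 ± 0.0818 (adjusted p 0.348) and -0.02 ± 0.097 without them.

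**Figure D3:**
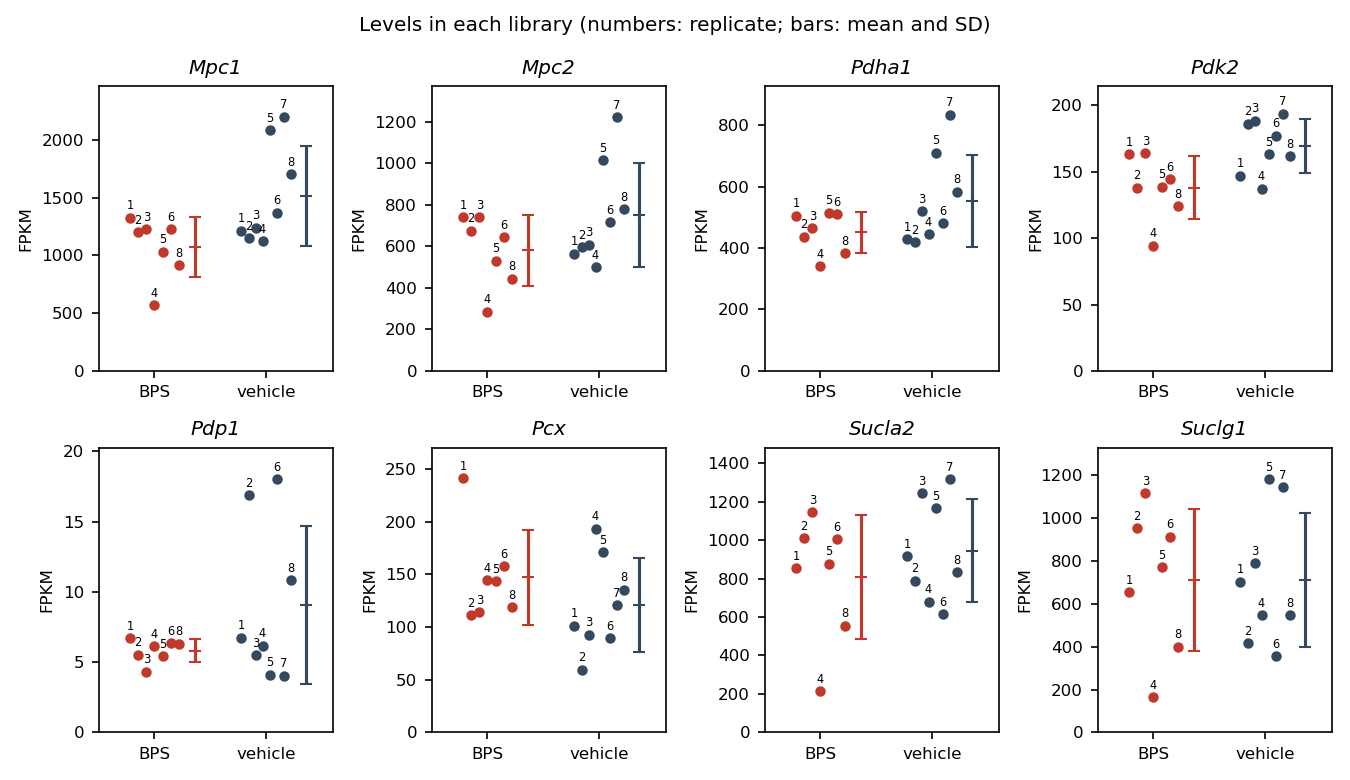
FPKM of 8 genes in each BPS library (red) and each vehicle library (dark), with the replicate number above each point and the mean and SD beside each group. BPS replicate 4 is lowest for Mpc1, Mpc2, Pdha1, Pdk2, Sucla2 and Suclg1, vehicle replicates 2, 6 and 8 are highest for Pdp1, and BPS replicate 1 is highest for Pcx.

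Anaplerotic enzymes, which refill or drain the cycle by way of pyruvate, had positive estimates. Pcx (Entrez 18563, chromosome 19, 4510472 to 4621752), pyruvate carboxylase, makes oxaloacetate from pyruvate. It had 111.3, 143 and 241 FPKM in BPS libraries and 59.55, 111.1 and 193 FPKM in vehicle libraries. BPS replicate 1 alone lay above the vehicle range, and the rest lay within it. The log2 change was 0.33 ± 0.229 (95% interval -0.16 to 0.81, adjusted p 0.385, limma), 0.36 ± 0.340 without the 4 BPS libraries and 0.13 ± 0.223 without vehicle replicates 2, 6 and 8, of which replicate 2 had the lowest level of all libraries. Me2, the mitochondrial NAD-dependent malic enzyme (Entrez 107029, chromosome 18), had 1.69, 2.32 and 2.82 FPKM in BPS libraries and 1.19, 1.99 and 2.58 FPKM in vehicle libraries (log2 change 0.14 ± 0.11, adjusted p 0.428), with -0.02 ± 0.142 without the 4 BPS libraries and 0.07 ± 0.111 without the 3 vehicle libraries.

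The enzymes of the cycle proper, 12 genes, had a median log2 change of -0.10 with 10 negative, and a median of 0.06 without BPS replicates 4, 5, 6 and 8, where all 12 estimates were above 0 and the smallest was 0.00 for Ogdh and Suclg2. Without vehicle replicates 2, 6 and 8 all 12 were below 0, with a median of -0.26 and a range of -0.52 for Sucla2 to -0.09 for Suclg2. With all 15 libraries, adjusted p of the cycle genes lay between 0.423 and 0.972 (limma). The first step, Cs (Entrez 12974, chromosome 10, 128337727 to 128362482), stood at 738 ± 162 FPKM in BPS and 816 ± 214 FPKM in vehicle, a log2 change of -0.14 ± 0.181 with a 95% interval of -0.52 to 0.25. The 3 subunits of the NAD-dependent isocitrate dehydrogenase were present at like levels, with BPS means of 454 ± 114 for the catalytic Idh3a, 519.6 ± 137 for Idh3b and 591 ± 187 FPKM for Idh3g, and vehicle means of 486 ± 164, 576 ± 157 and 555 ± 205 FPKM. Idh3g had a positive estimate (0.09 ± 0.255) and Idh3a and Idh3b negative ones (-0.08 ± 0.212 and -0.16 ± 0.204), and all 3 intervals held 0. Idh2, the mitochondrial isocitrate dehydrogenase that makes NADPH, was the other cycle gene with a positive estimate (0.01 ± 0.158, 95% interval -0.33 to 0.35).

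The 2-oxoglutarate dehydrogenase complex is the next step of the cycle. Its E1 gene Ogdh (Entrez 18293, chromosome 11, 6291597 to 6359094) had 145.6, 347 and 438 FPKM in BPS libraries and 277, 375 and 554 FPKM in vehicle libraries. BPS replicates 4 and 8 lay under every vehicle library, and the other 5 lay within the vehicle range. The log2 change was -0.29 ± 0.219 (95% interval -0.75 to 0.17, adjusted p 0.423, limma), -0.11 without BPS replicate 4 and 0.00 ± 0.207 without all 4. It was -0.43 ± 0.259 without vehicle replicates 2, 6 and 8. The E2 gene Dlst (chromosome 12, 85110822 to 85134091) averaged 336 ± 75.7 FPKM in BPS and 364 ± 95.04 FPKM in vehicle (-0.11 ± 0.181).

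Succinyl-CoA ligase, the step that forms ATP or GTP, showed the widest spread. Sucla2 (Entrez 20916, chromosome 14, 73552786 to 73596144), the ATP-forming beta subunit, had 214, 878 and 1145 FPKM in BPS libraries and 615, 876 and 1316 FPKM in vehicle libraries. The medians were almost the same, and BPS replicates 4 and 8 were lowest of all 15 at 214 and 554 FPKM. Its log2 change was -0.34 ± 0.309 (95% interval -0.99 to 0.32, adjusted p 0.511, limma), -0.04 without BPS replicate 4, 0.13 ± 0.232 without all 4 and -0.52 ± 0.369 without vehicle replicates 2, 6 and 8. Suclg1 (Entrez 56451, chromosome 6, 73248505 to 73276907), the alpha subunit that both forms need, had 166, 772 and 1117 FPKM in BPS libraries and 356, 626 and 1181 FPKM in vehicle libraries. It had the highest coefficient of variation of any member in BPS, 46.8%, and 43.9% in vehicle, second there to Pdp1 at 62.2%. Its log2 change was -0.09 ± 0.381 with all libraries and 0.44 ± 0.352 without the 4 (adjusted p 0.750), but -0.45 ± 0.421 without vehicle replicates 2, 6 and 8. Suclg2, the GTP-forming beta subunit (Entrez 20917, chromosome 6, 95473009 to 95718858), had the smallest coefficient of variation in BPS, 6.25%, and 12.6% in vehicle, with 84.2 to 98.6 FPKM in BPS libraries and 79.8 to 109.9 FPKM in vehicle libraries. BPS replicate 4, at 84.9 FPKM, lay within both ranges. Its log2 change of -0.01 ± 0.0799 had a 95% interval of -0.18 to 0.16, the narrowest of the 29.

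The last steps are fumarase and malate dehydrogenase. Fh1, fumarase (chromosome 1, 175601378 to 175625635), averaged 276.5 ± 75.9 FPKM in BPS and 287 ± 98.1 FPKM in vehicle (-0.04 ± 0.223). Mdh2 (Entrez 17448, chromosome 5, 135778649 to 135790386) had 564, 893 and 1050.4 FPKM in BPS libraries and 721, 856 and 1301 FPKM in vehicle libraries, with a log2 change of -0.13 ± 0.159 (95% interval -0.47 to 0.20, adjusted p 0.620, limma), 0.02 ± 0.187 without the 4 BPS libraries and -0.22 ± 0.190 without the 3 vehicle libraries.

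Of the 3 cytosolic enzymes, Idh1 and Aco1 were highest in BPS replicate 4, where most other members were lowest. Idh1 (Entrez 15926, chromosome 1, 65158616 to 65186479), which makes NADPH in the cytosol, had 132.6, 168 and 191.45 FPKM in BPS libraries and 99.8, 140.4 and 176 FPKM in vehicle libraries. BPS replicates 4 and 5 lay above every vehicle library and 1 BPS library lay under the vehicle mean. Its log2 change was 0.25 ± 0.126 (95% interval -0.02 to 0.52, adjusted p 0.243, limma), 0.07 ± 0.168 without the 4 and 0.11 ± 0.118 without vehicle replicates 2, 6 and 8. Aco1 (Entrez 11428, chromosome 4, 40143265 to 40199009), the cytosolic aconitase that becomes an iron-regulated RNA-binding protein when it lacks its iron-sulfur cluster, had 35.55, 49.9 and 61.0 FPKM in BPS libraries and 27.4, 46.2 and 55.3 FPKM in vehicle libraries. BPS replicates 4 and 5 were again the 2 highest, and its log2 change was 0.18 ± 0.154 (adjusted p 0.480), -0.03 ± 0.204 without the 4 and 0.02 ± 0.137 without the 3 vehicle libraries. Mdh1, the cytosolic enzyme of the malate-aspartate shuttle, had 333, 430.2 and 496 FPKM in BPS libraries and 318, 439 and 486.5 FPKM in vehicle libraries (log2 change 0.02 ± 0.116). In all, BPS replicate 4 lay under every vehicle library for 20 members and above every vehicle library for 4, Aco1, Idh1, Me2 and Pdpr, and among all tested genes it lay under every vehicle library for 22.5%. The share of all tested genes above every vehicle library was not computed, so the 4 have no background to be set against.

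Ratios of related genes within a library hardly move with that library's scaling where both genes are abundant. Here 6 were compared (log2 of A over B, each with 1 FPKM added). The added 1 FPKM makes ratios of low genes, such as Pdp1 over Pdp2, depend more on scaling. Tests were two-sided exact permutation tests over all 6435 splits, for which the smallest p is 0.000155, with Benjamini-Hochberg adjustment over the 6. None passed. Mpc1 over Mpc2 was 0.90 ± 0.109 in BPS (SD, n = 7) and 1.02 ± 0.108 in vehicle (SD, n = 8), a difference of -0.12 (exact permutation p 0.0491, adjusted p 0.265), with 6 of 7 BPS libraries under the vehicle mean. Pdk2 over Pdk1 was 2.76 ± 0.286 in BPS and 3.06 ± 0.346 in vehicle, a difference of -0.31 (exact permutation p 0.0884, adjusted p 0.265), again with 6 of 7 BPS libraries under the vehicle mean. Without the 4 BPS libraries, 3 BPS libraries stood against 8 vehicle libraries, with 165 splits and a smallest possible p of 0.00606. The Mpc1 over Mpc2 difference was then -0.23 (exact permutation p 0.0121, adjusted p 0.0727). That of Pdk2 over Pdk1 was -0.12 (exact permutation p 0.570, adjusted p 0.684). Sucla2 over Suclg2 was 2.98 ± 0.799 in BPS and 3.30 ± 0.257 in vehicle (exact permutation p 0.338), and the difference of -0.33 turned to 0.12 without the 4 BPS libraries. The mitochondrial over the cytosolic form was 1.21 ± 0.508 in BPS and 1.46 ± 0.356 in vehicle for Idh2 over Idh1, and 1.01 ± 0.357 in BPS and 1.17 ± 0.256 in vehicle for Mdh2 over Mdh1 (exact permutation p 0.307 and 0.342). Both of these differences also turned positive without the 4, to 0.10 and 0.12. Pdp1 over Pdp2 was -0.88 ± 0.572 in BPS and -0.50 ± 1.06 in vehicle (exact permutation p 0.416), and the difference of -0.38 turned to 0.32 without vehicle replicates 2, 6 and 8.

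**Figure D4:**
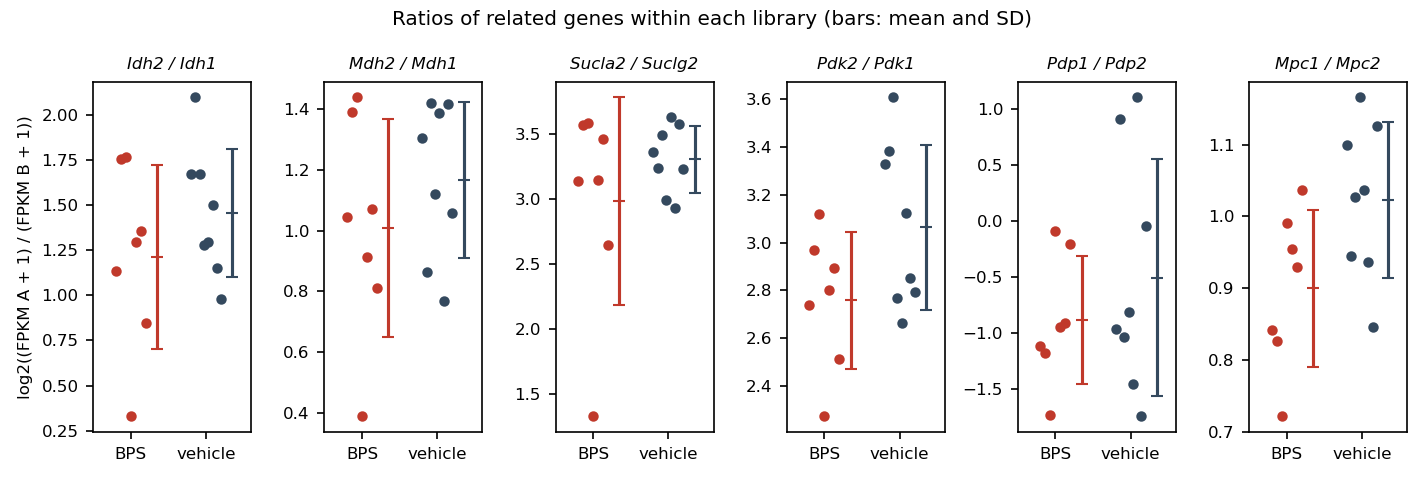
Each point is 1 library (BPS red, left; vehicle dark, right) and each panel is the log2 ratio of 2 related genes, with mean and SD beside each group. The lowest point of the Sucla2 over Suclg2 panel, at 1.33, is BPS replicate 4, and the groups overlap in all 6 panels.

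Other genes of the pathway were read from a list of 41, which holds succinate dehydrogenase and its assembly factors, other aconitase, kinase and malic enzyme genes, lactate dehydrogenase, mitochondrial carriers, transaminases and lipoate synthesis. Of these, 39 were tested, 0 were higher and 0 lower past the threshold (limma), 6 had an unadjusted p under 0.05 (15.4%, against 23.1% of all tested genes) and 25 estimates were negative (64.1%, against 41.5%), with a median of -0.14. The smallest p was that of Glud1, which turns glutamate into 2-oxoglutarate, with 128 ± 24.3 FPKM in BPS (SD, n = 7) and 93.0 ± 12.6 FPKM in vehicle (SD, n = 8), a log2 change of 0.45 ± 0.118 (adjusted p 0.0907) and of 0.21 without the 4 BPS libraries. Sdhaf4, a succinate dehydrogenase assembly factor, averaged 80.8 ± 11.9 FPKM in BPS and 106.4 ± 17.1 FPKM in vehicle (-0.39 ± 0.117, adjusted p 0.107). Pck2, the mitochondrial enzyme that makes phosphoenolpyruvate from oxaloacetate, averaged 34.0 ± 4.09 FPKM in BPS and 26.5 ± 7.11 FPKM in vehicle (0.38 ± 0.144, adjusted p 0.149), with 0.19 ± 0.133 without vehicle replicates 2, 6 and 8. Without those vehicle libraries Glud1 was at 0.31 ± 0.123 and Sdhaf4 at -0.37 ± 0.139. Without the 4 BPS libraries Sdhaf4 was at -0.27 ± 0.140 and Pck2 at 0.43 ± 0.212. In the authors' deposited table Glud1 and Sdhaf4 had q-values of 0.0332 and 0.0352, the only 2 of the 41 under 0.05, which is 4.88% against 5.74% of all genes in that table.

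Marker levels of several cell types differed between the same libraries. The list of white adipocyte markers also held general adipocyte genes, such as Adipoq and Plin1. The 11 found summed to 10651, 6993, 5171 and 7453 FPKM in BPS replicates 4, 5, 6 and 8. They summed to 2239 to 3969 FPKM in BPS replicates 1 to 3 and to 1484 to 5222 FPKM in vehicle. Hoxc9 alone of them was at 0 in a library. The 10 macrophage markers summed to 276 to 819 FPKM in BPS, highest in replicate 4, and to 280 to 425 FPKM in vehicle, with none at 0. Muscle markers had negative estimates for 15 of 15, with a median log2 change of -2.24 and none past the threshold, and Myh2 and Pvalb were at 0 in BPS replicate 8. Endothelial markers summed to 246 to 804 FPKM in BPS and to 392.3 to 964 FPKM in vehicle, and the 7 lymphocyte markers found, of which Ms4a1 was at 0 in a library, to 3.87 to 37.6 FPKM in BPS and to 9.98 to 48.0 FPKM in vehicle. The part of any of these in the levels of the 29 genes was not tested, apart from the fits without libraries and with the muscle score. With that score as a covariate, 23 members were negative, the median was -0.19 and 0 passed.

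**Figure D5:**
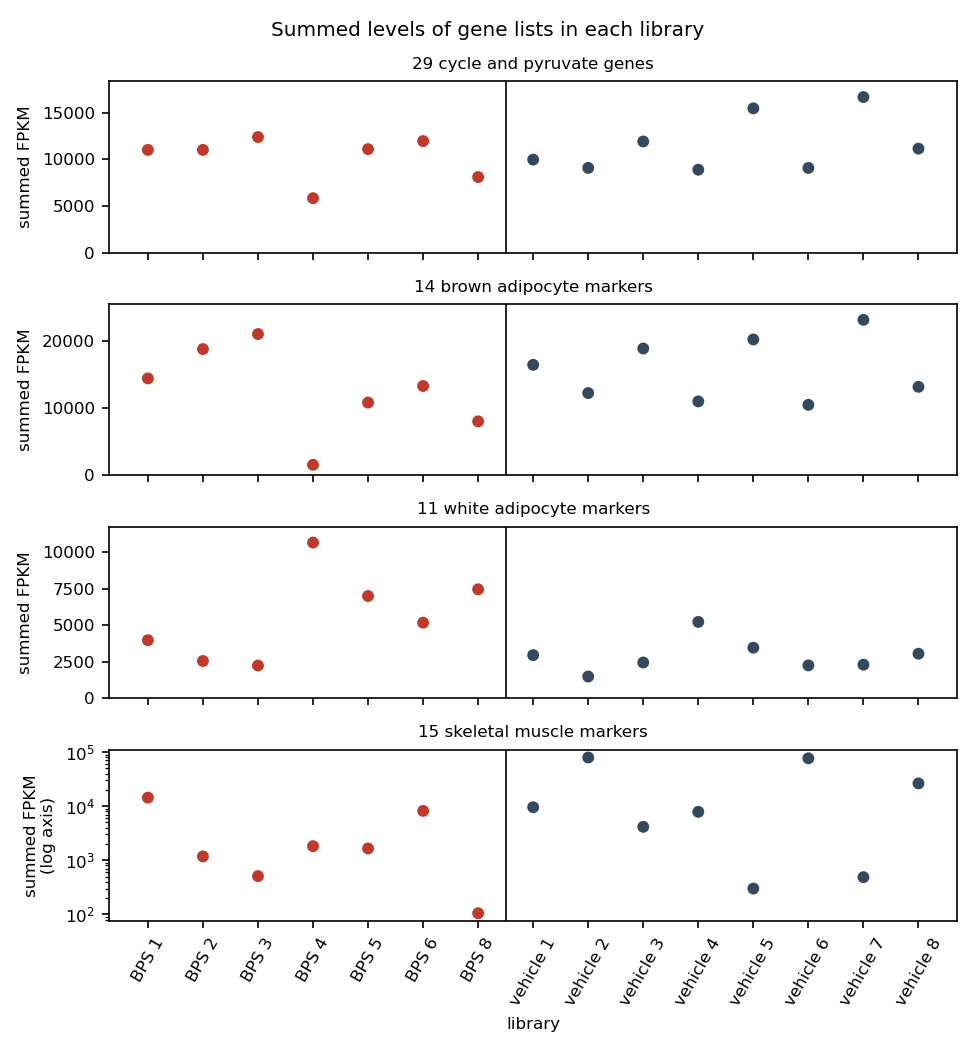
Summed FPKM in each library (BPS red, left of the line; vehicle dark, right) of the 29 cycle and pyruvate genes, 14 brown adipocyte markers, 11 white adipocyte markers and, on a log axis, 15 skeletal muscle markers. BPS replicate 4 is lowest for the 29 genes and for the brown markers and highest for the white markers, and vehicle replicates 2 and 6 are highest for the muscle markers.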

How the data were processed

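The submitters' processing notes name the build GRCm38.p6 and, with no role stated, DESeq2 1.4.5, RSEM 1.3.1, Bowtie2 and HISAT2 2.1.0. Per the labels' protocols, poly(A) RNA was captured with oligo(dT) beads and copied with random primers. The authors deposited FPKM to 2 decimals, group means, and their own log2 ratio of BPS over vehicle with its p-value and q-value, used only where named. FPKM divides by each library's total, so abundant transcripts lower all others. Strand use is not given in the sources used here. By RefSeq spans, 10 of the 29 genes overlap another gene, 4 of them (Idh3b, Dlst, Pdha1 and Pcx) a protein-coding one, and their reads may be mixed. Read depth is unknown, since peaks in ratios of low values held only 3.54% to 7.99% of genes.

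A gene was tested if 7 or more libraries held 1 FPKM or more, which left 12156 genes. limma 3.58.1 in R 4.3.3 (trend, robust) was run on log2(FPKM + 1), a scale that understates changes of low genes, with Benjamini-Hochberg adjustment over all of them and a threshold of 0.05. All 29 members were tested. A value after ± is the SE for a log2 change and the SD for FPKM or a ratio. The fit was tested on simulated data. Members, lists and tests were chosen with earlier results of these data known. By rule, library values are given for up to 3 members of smallest p per role. Suclg1, Suclg2 and Pdp2 were added after their values were seen. Alternatives were other pseudocounts, filters, scalings and spread models, a replicate block, a muscle covariate and left-out libraries. The fit without both sets of libraries was chosen after seeing the data. No 2 libraries were identical, and the highest correlation of any 2 was 0.994.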

Additional observations from a re-analysis of the deposited data

Results flagged for a closer look

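Each group's highest and lowest value was compared with its nearest neighbour by Dixon's test for the 29 genes and the 6 ratios, 58 and 12 group ranges. Chance alone flags about 1 in 20 groups, and 2 stood out. Pcx was at 241.09 FPKM in BPS replicate 1, with a gap to the next BPS library of 64.2% of the BPS range. The Sucla2 over Suclg2 ratio was 1.33 (log2) in BPS replicate 4, with a gap of 58.5% of the BPS range. In BPS replicate 1 the muscle marker sum was 14394 FPKM, the highest of the BPS libraries, and in BPS replicate 4 the brown marker sum was 1597 FPKM, the lowest of all. Their part in these values was not tested.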

How the results depend on the processing

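No member passed the threshold with limma under any of 27 alternatives, where 0 to 88 of all tested genes did, so no call was there to lose. The smallest adjusted p of a member was 0.1004, for Pdk2. The sign held under every alternative for 7 members. The log2 estimates below had the other sign, and the cause was not tested. With a pseudocount of 5, values were -0.0018 for Pdk1 and 0.00151 for Pdp2. With quantile normalization, values were -0.0184 for Pdk1. With median scaling, values were -0.0309 for Idh2, -0.0164 for Mdh1 and -0.0393 for Pdk1. With the replicate block, 14 members were negative and 38 of all tested genes passed, against 50 without it. Whether libraries with the same number are pairs is not settled by these values. The correlations of their deviations ran from -0.418 to 0.583, and 2 of 7 correlated best with their own number. With this block, values were 0.00439 for the median of the members, 0.0281 for Idh3a, 0.0239 for Suclg1, 0.0268 for Suclg2, 0.0517 for Fh1, 0.00439 for Pdhx and 0.0541 for Pdp2. With the muscle score as a covariate, values were -0.0236 for Idh2, -0.0748 for Idh3g and -0.0585 for Pdk1. Without BPS replicates 4, 5, 6 and 8, values were 0.00161 for the median of the members, 0.00941 for Cs, -0.0308 for Aco1, 0.067 for Idh3a, 0.0416 for Idh3b, 0.00153 for Ogdh, 0.0626 for Dlst, 0.13 for Sucla2, 0.44 for Suclg1, 0.00161 for Suclg2, 0.16 for Fh1, -0.10 for Mdh1, 0.0249 for Mdh2, -0.0234 for Me2, 0.0727 for Pdhx, 0.38 for Pdp2, -0.0169 for Pdpr, 4.29e-06 for Mpc2, 0.10 for Idh2 over Idh1 (ratio), 0.12 for Mdh2 over Mdh1 (ratio) and 0.12 for Sucla2 over Suclg2 (ratio). Without vehicle replicates 2, 6 and 8, values were -0.0903 for Idh2, -0.18 for Idh3g, 0.13 for Pdp1 and 0.32 for Pdp1 over Pdp2 (ratio). Without both sets, chosen after seeing the data, values were -0.19 for Aco1, -0.0686 for Idh1, 0.0849 for Suclg1, -0.0272 for Mdh1, -0.10 for Me2, 0.0417 for Pdhx, 0.0522 for Pdp1, 0.19 for Pdp2, 0.14 for Idh2 over Idh1 (ratio) and 0.0198 for Sucla2 over Suclg2 (ratio). Leaving out each library in turn gave -0.14 to 0.00631 for the median of the members, -0.0511 to 0.12 for Idh2, -0.15 to 0.0584 for Idh3a, -0.00234 to 0.26 for Idh3g, -0.17 to 0.00904 for Dlst, -0.24 to 0.22 for Suclg1, -0.0379 to 0.0274 for Suclg2, -0.12 to 0.0935 for Fh1, -0.0266 to 0.0785 for Mdh1, -0.13 to 0.00615 for Pdhx, -0.0634 to 0.0611 for Pdk1 and -0.0907 to 0.11 for Pdp2, with the highest value most often without BPS replicate 4. The median of the members was also above 0 without vehicle replicate 7. Without BPS replicate 4 the count over all tested genes was 4, without vehicle replicates 2, 6 and 8 it was 0 and with the muscle score it was 2. With FPKM alone, the depth behind low members such as Me2 is unknown.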
